A study of Mus musculus with 2 samples.

Results

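Deoxynucleotide supply and uracil removal were followed through 9 genes, namely Rrm1, Rrm2, Rrm2b, Tyms, Dut, Tk1, Dck, Dctpp1 and Ung, in bone marrow cells with and without the transcription factor NRF2. A gene counted as a member when its array probe sets were annotated with that gene symbol alone, and all 9 were measured, out of 19938 genes on the arrays. The samples were KSL cells, the lineage-negative fraction of marrow that carries c-Kit and Sca-1 and is enriched for blood stem cells and multipotent progenitors. They came from Nrf2 knockout and from wild-type mice, both on the C57BL/6J background, healthy and 8 to 10 weeks old, and the labels name no treatment. Marrow of 5 mice per genotype was pooled before sorting, and 1 RNA pool per genotype was hybridised to 1 array. Which exons of the Nrf2 gene, Nfe2l2, the knockout lacks is not stated in the labels. Since each gene had 1 value per genotype, no difference could be tested against the spread between animals, and no p-value was computed.

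A cell that copies its genome needs all of its deoxynucleotides in balance. Ribonucleotide reductase makes them by reducing ribonucleotides, with RRM1 as the large subunit and either RRM2, which cycling cells make, or RRM2B, a p53-induced alternative, as the small subunit. Thymidylate synthase, encoded by Tyms, makes the thymine nucleotide from dUMP, which DUT supplies by hydrolysing dUTP. Thymidine kinase TK1 and deoxycytidine kinase DCK instead recycle nucleosides taken up from outside or released by breakdown. DCTPP1 hydrolyses modified and excess dCTP, and the glycosylase UNG cuts out uracil that reached DNA through dUTP or through deamination of cytosine.

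Promoter sequence was found in RefSeq, on the GRCm38.p6 build, for 8 of the 9 members; no entry was used for Rrm2b. These windows of 300 bases, from 250 before the transcription start to 50 after it, were searched on both strands because the groups differ in NRF2, which binds antioxidant response elements, and because several members are textbook E2F targets. The core of the antioxidant response element, TGACNNNGC, was present in 2 of the 8 members, Dck and Rrm2, and in 12.4% of 32851 promoter windows of the same length. An E2F-type motif, spelled TTNNCGC with G or C at both N, was present in Rrm1 and Rrm2 and in 9.6% of all windows. The CCAAT box, CCAAT, was present in 3 members, Dctpp1, Rrm1 and Rrm2, and in 37.4% of all windows, and TATAAA in 0 of 8 against 13.6%. No match overlapped a match to another motif, and a match is a description of letters and not of binding. The upstream parts of 3 promoters are printed here in lower case with the matches to the first 3 motifs in capitals: Dck, the member with the largest difference and a response element core 60 bases before the start; Rrm2, the member with matches to all 3 motifs; and Tyms, the member with the lowest difference, in whose window none of the 4 motifs was matched. Only bases before the outermost annotated start of the gene are printed, which leaves 250 bases for Dck and Rrm2 and 230 for Tyms.
Dck, GRCm38.p6 chr5:88764763-88765012, plus strand: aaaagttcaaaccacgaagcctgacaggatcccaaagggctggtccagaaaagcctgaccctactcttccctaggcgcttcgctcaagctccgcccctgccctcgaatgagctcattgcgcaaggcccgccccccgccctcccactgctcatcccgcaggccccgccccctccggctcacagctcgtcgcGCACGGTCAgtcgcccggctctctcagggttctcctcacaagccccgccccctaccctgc
Rrm2, GRCm38.p6 chr12:24708004-24708253, plus strand: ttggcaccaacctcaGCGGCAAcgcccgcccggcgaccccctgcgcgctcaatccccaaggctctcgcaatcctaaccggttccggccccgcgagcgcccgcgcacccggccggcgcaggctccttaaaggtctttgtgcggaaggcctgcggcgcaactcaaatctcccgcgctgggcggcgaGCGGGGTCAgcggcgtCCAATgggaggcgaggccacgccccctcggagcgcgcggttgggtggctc
Tyms, GRCm38.p6 chr5:30073646-30073875, minus strand: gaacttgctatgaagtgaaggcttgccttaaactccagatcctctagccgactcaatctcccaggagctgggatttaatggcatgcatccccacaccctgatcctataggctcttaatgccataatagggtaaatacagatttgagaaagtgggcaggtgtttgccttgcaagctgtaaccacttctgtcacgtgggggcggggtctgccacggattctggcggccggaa
Dck and Rrm2, which hold the response element core, were both higher in the knockout, by 0.81 and 0.25 on the log2 scale. Of all 9 members 6 were higher, and the 0.25 of Rrm2 was smaller than the SD of 0.31 of a probe-set difference. Like Tyms, the members Tk1, Dut and Ung had no match to any of the motifs, and they differed by 0.56, −0.10 and 0.58. Whether the matches bear on the differences was not tested. The first capitals in Rrm2 are the E2F-type match, the next the response element core, 66 bases before the start, and the last the CCAAT box.

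The 9 members did not share 1 direction. On the knockout array 6 were higher and 3 lower than in the wild type, with log2 differences from −0.58 for Tyms to 0.81 for Dck. Both salvage kinases, the p53-induced reductase subunit Rrm2b and the uracil glycosylase Ung were higher, by 0.50 to 0.81 with the probe sets of Tk1 averaged and by only 0.21 for Tk1 from its first probe set alone, thymidylate synthase was lower by a similar size, and Rrm1, Dut and Dctpp1 were nearly level. Their median difference was 0.25, against −0.02 over the 9970 genes past the level filter, and 46.5% of those genes were higher. That filter kept genes whose mean log2 intensity over both arrays reached 6.57, the median over genes, and all 9 members passed it. Every difference is the knockout value less the wild-type value on the log2 scale, so 0.58 stands for about 1.5-fold.

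**Figure D1:**
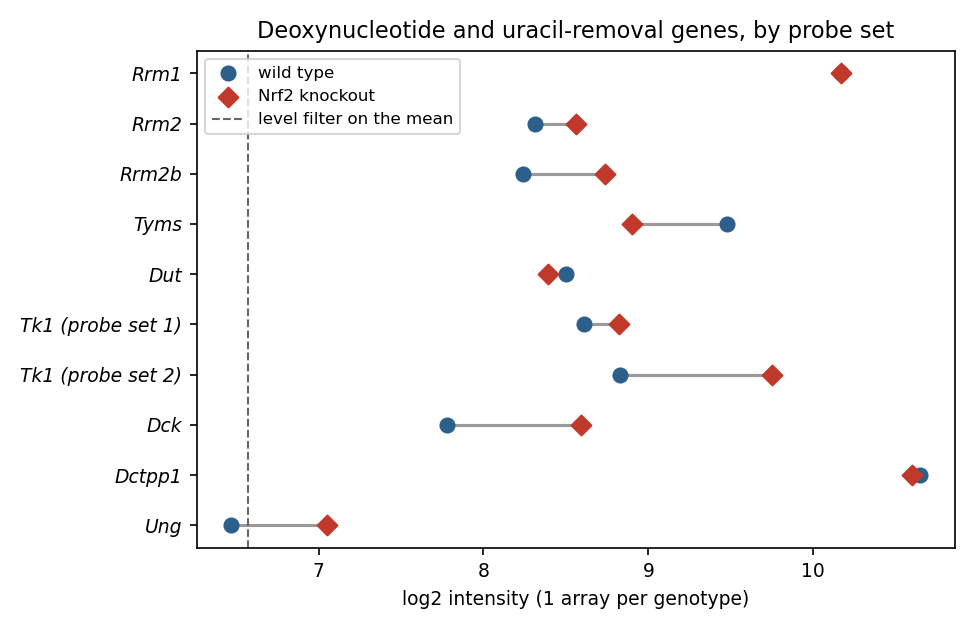
Log2 intensity (horizontal axis) of each member probe set on the wild-type array (circles) and the Nrf2 knockout array (diamonds), joined by a line, with the dashed line at the level filter of 6.57. Tyms is the member with a clearly lower knockout value, at 8.90 against 9.48, and the 2 probe sets of Tk1 differ in the length of their lines.

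By size, 1 of the 9 members, Dck, was at least 1.5-fold higher, against 2.34% of all genes past the filter, and 0 members were at least 1.5-fold lower, against 4.3% of those genes. Ung, Tk1 and Tyms lay just inside that line, whose log2 value is 0.585. At a smaller size, a log2 difference of 0.32, 4 members were higher (Rrm2b, Tk1, Dck and Ung), against 9.27% of all genes, and 1 was lower (Tyms), against 14.5%; with the first probe set of Tk1 alone 3 were higher. At 2-fold, 0 members were higher, against 0.411%, and 0 were lower, against 0.762%. The middle 95% of genes past the filter had differences between −0.73 and 0.57, and Ung and Dck lay above that range. The error that could be measured was that of the probe sets: over 515 genes with exactly 2 probe sets the difference of a probe set had an SD of 0.31, and a robust estimate gave 0.17. The differences of 5 members, Dck, Ung, Tyms, Tk1 and Rrm2b, were larger than 0.31, as were those of 24.6% of all genes past the filter. Variation from mouse to mouse, and that of sorting and amplifying, is not part of this error.

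**Figure D2:**
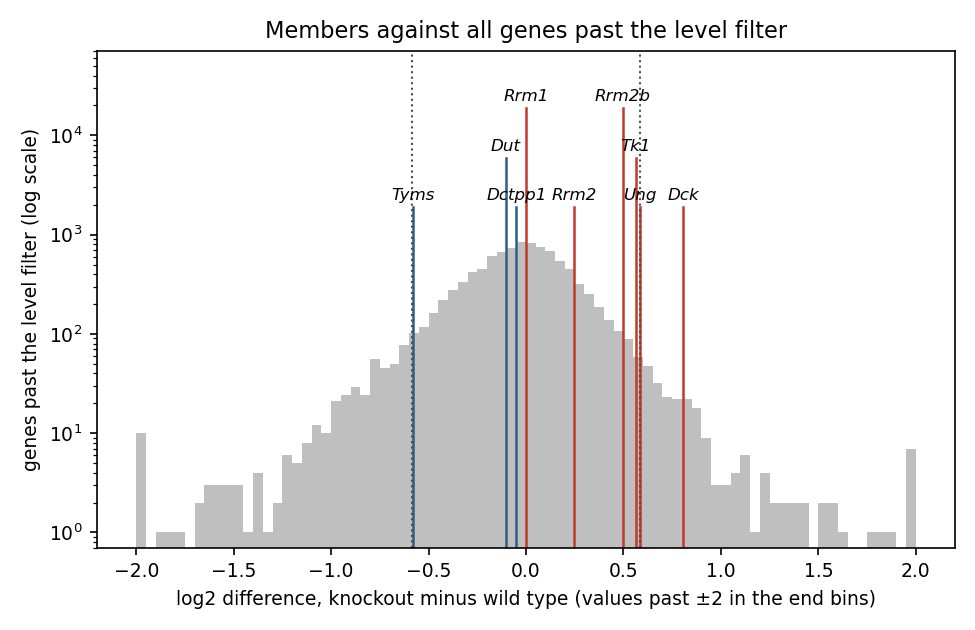
Histogram of the log2 difference (knockout minus wild type, horizontal axis) over the 9970 genes past the level filter, with the number of genes on a log axis, values past 2 in either direction in the end bins and dotted lines at 1.5-fold. Vertical lines mark the members, of which Dck, at 0.81, is the only line clearly beyond the dotted lines and Rrm1, Dctpp1 and Dut lie near the centre.

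The subunits of ribonucleotide reductase were level or higher in the knockout. The large subunit Rrm1 stood at 10.17 on both arrays, with a difference that rounded to 0.00. The replication-linked small subunit Rrm2 read 8.56 in the knockout pool against 8.31 in the wild type, higher by 0.25, which is 118.5% of the wild-type intensity. Rrm2b stood at 8.74 against 8.24, higher by 0.50, which is 141.2%, and 3.7% of all genes past the filter lay higher. Rrm2b thus exceeded Rrm2 by 0.25 in its difference, within the probe-set SD of 0.45 for such a contrast, so the arrays did not separate the small subunits. The reductase is switched back to its active form by thioredoxin and glutaredoxin. A list of these donors and the enzymes that recycle them, mitochondrial forms included, had 7 genes past the filter. Of these 5 were lower and 2 higher, with a median of −0.24. Glutathione reductase, Gsr, which keeps the glutaredoxin branch supplied, stood at 7.80 against 8.67, a difference of −0.87. Thioredoxin itself, Txn1, and the glutaredoxin Glrx each differed by −0.31, and the mitochondrial glutaredoxin Glrx2 by −0.24. Rrm1, the large subunit, was level in the same arrays.

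Regulators of the reductase were more often higher, 12 of 16 past the filter, with a median of 0.16. The transcription factor E2f3 was higher by 0.59, cyclin F, Ccnf, which marks RRM2 for destruction, by 0.57, Fzr1, an activator of the anaphase-promoting complex, by 0.55, and the replication stress kinase Atr by 0.52. RRM2B is known as a p53 target, and the 13 other p53 targets past the filter were mostly on the other side of 0, with 11 lower, 2 higher and a median of −0.23. Pmaip1, which encodes the death factor NOXA, differed by −0.49, the damage-recognition genes Ddb2 and Xpc by −0.33 and −0.29, and the sestrin Sesn1 by −0.31. Rrm2b, at 0.50, was above the highest of those 13 genes, which reached 0.16. Trp53, the gene of p53, and its best-known target Cdkn1a had no probe set with a single symbol and were not analysed here.

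The gene for thymidylate synthesis from dUMP was the member with the lowest difference. Tyms read 8.90 in the knockout pool against 9.48 in the wild type, a difference of −0.58 that leaves 66.8% of the wild-type intensity, and 4.4% of all genes past the filter were lower still. The pseudogene Tyms-ps, a copy with its own probe set, stood at 6.69 against 6.84, a difference of −0.15; whether its transcripts add to the Tyms probe set was not tested. Dut, which makes the dUMP that TYMS uses and keeps dUTP out of DNA, was close to level at 8.39 against 8.50, a difference of −0.10. The folate cycle hands TYMS its carbon unit, and of 14 thymidylate and folate genes past the filter 9 were higher and 5 lower, with a median of 0.10. The mitochondrial folate enzyme Mthfd2l stood out in that list at 9.47 against 7.51, a difference of 1.96, while its relative Mthfd2 was higher by 0.30, the folate receptor Folr1 by 0.35, and the methionine synthase reductase Mtrr differed by −0.27.

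Dck, a salvage kinase, was the member furthest above the wild type. It read 8.59 against 7.78, higher by 0.81, which is 174.9% of the wild-type intensity, and 90 of the 9970 genes past the filter had a higher difference. Tk1 stood at 9.29 against 8.72 as the average of its 2 probe sets, a difference of 0.56. Those probe sets disagreed: the first was at 8.82 against 8.61, a difference of 0.21, and the second at 9.75 against 8.83, a difference of 0.92. The gap of 0.71 was wider than in 88.5% of the 515 genes with 2 probe sets past the filter, whose median gap was 0.16. In the order of probe set IDs, in which 97.1% of singly annotated probe sets had an adjacent one from the same chromosome, all 40 nearest annotated neighbours of the first set belonged to genes on the Tk1 chromosome, and 0 of 40 for the second. Of the 40 neighbours of the second set, 24 belonged to genes on chromosome 8. The other members had 38 to 40 of 40 neighbours on their own chromosome. Where the probes of the second set lie was not tested, and with the first set alone Tk1 was higher by 0.21, within the probe-set SD of 0.31.

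**Figure D3:**
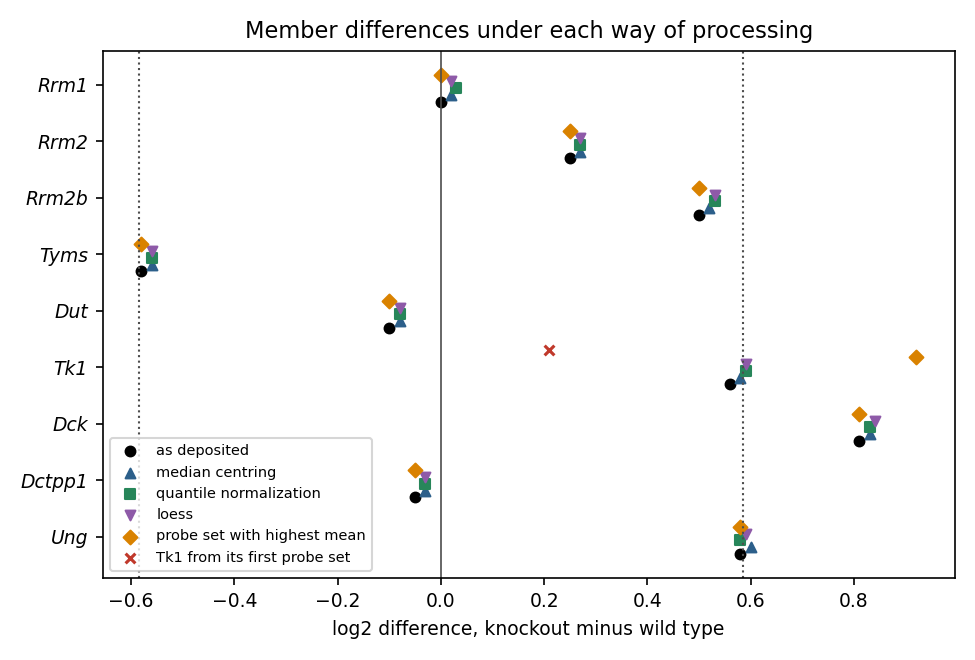
Log2 difference (knockout minus wild type, horizontal axis) of each member as deposited, after median centring, quantile normalization or loess, with the probe set of highest mean, and for Tk1 from its first probe set alone; dotted lines mark 1.5-fold. The marks of each member lie close together except for Tk1, which runs from 0.21 to 0.92. The other 8 members had 1 probe set each, so the probe set rule could not move them.

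The salvage kinase Dck differed from the wild type in the direction opposite to Tyms. Tk1 did so too, but from its first probe set by only 0.21, within the probe-set SD of 0.31. The difference of Dck exceeded that of Tyms by 1.39, with a probe-set SD of 0.45 for the contrast. These are the highest and lowest of the 9 members, so 1.39 is the range of the group, and the SD is that of a pair chosen beforehand. Tk1 exceeded Tyms by 1.15, or by 0.79 with its first probe set alone. The rest of the salvage and nucleotide kinase genes did not share the direction of Dck, with 13 of 21 past the filter lower, 8 higher and a median of −0.15. Both uridine-cytidine kinases passed the filter and differed in direction, Uck2 at 8.85 against 9.89, a difference of −1.05, and Uck1 at 8.59 against 7.86, a difference of 0.73. Adenosine kinase, Adk, was higher by 0.72. The nucleoside diphosphate kinases Nme3 and Nme7 differed by −1.06 and −0.77, and Nme7 lay below the filter level on the knockout array, where weak signal makes a size less sure. Of the 21 genes in this list 23.8%, the averaged Uck2 among them, were at least 1.5-fold different, against 6.64% of all genes past the filter.

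Dctpp1, which cleans the nucleotide pool, was close to level. It stood at 10.60 against 10.65, a difference of −0.05. Of 15 genes of dNTP hydrolysis, pool cleaning and nucleoside breakdown past the filter, 10 were lower and 5 higher, with a median of −0.09. Of these, 0 were at least 1.5-fold different, against 6.64% of all genes past the filter, a share at which a list of this length holds few such genes. The widest differences were 0.31 for the deoxyribose phosphate aldolase Dera, −0.26 for Dnph1, which removes the modified nucleotide hydroxymethyl-dUMP, 0.25 for the nucleotidase Nt5c3b and −0.22 for the purine nucleoside phosphorylase Pnp.

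Ung, which starts the removal of uracil, was higher in the knockout. It read 7.05 against 6.47 in the wild type, higher by 0.58, which is 149.8% of the wild-type intensity, and 2.3% of all genes past the filter lay higher. Its mean was only 0.19 above the filter and its wild-type value lay below the filter level, where a size is less sure. Ung exceeded Dut by 0.69 in its difference, with a probe-set SD of 0.45. That SD is for a pair chosen beforehand, and the members were chosen with earlier results of these data known. The other base excision repair genes past the filter were evenly split, 9 of 18 higher and 9 lower, with a median of 0.00. The repair polymerase Poll was higher by 0.75, the ligase Lig3 by 0.58 and the oxidised-base glycosylase Neil3 by 0.47, while Ogg1, which removes oxidised guanine, differed by −0.47.

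Genes that make the precursors of the deoxynucleotides differed by −0.36 to 0.41, and the nucleotides themselves were not measured. All 5 genes of pyrimidine synthesis passed the filter, with 3 higher, 2 lower and differences between −0.22 and 0.23; Cad, Umps and Dhodh were higher by 0.20, 0.19 and 0.23, and the CTP synthase Ctps differed by −0.22. Of 12 genes of purine synthesis 5 were higher and 7 lower, with a median of −0.01 and a mean on the other side of 0, at 0.02. Adsl was higher by 0.41, Adss, the adenylosuccinate synthase, differed by −0.36, and Impdh1 and Prps1 were higher by 0.16 and 0.10.

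Several members are made mainly by cells in S phase, and the rest of the replication genes give their setting. Of 41 genes of S phase and the replication fork, all past the filter, 27 were higher and 14 lower, with a median of 0.06. The polymerase subunit Pole2 was higher by 0.82, the clamp loader accessory factor Dscc1 by 0.59 and the chromatin assembly factor Chaf1a by 0.51, while the clamp loader subunit Rfc3 differed by −0.78. Genes of G2 and M phase were higher in 17 of 24, lower in 6, with a median of 0.33, among them Nusap1 by 0.82, Bub1 by 0.79, Hmmr by 0.68, Aurkb by 0.63 and Cenpf by 0.61. The S phase genes ran from −0.78 for Rfc3 to 0.82 for Pole2, and the members from −0.58 to 0.81. Such ranges rest on their end genes. Of the 41 S phase genes 7.3% were at least 1.5-fold different, against 6.64% of all genes past the filter. In pooled cells, a different share of cycling cells and a different amount of RNA per cycling cell cannot be told apart, and the part of the cell cycle in the member differences was not tested.

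**Figure D4:**
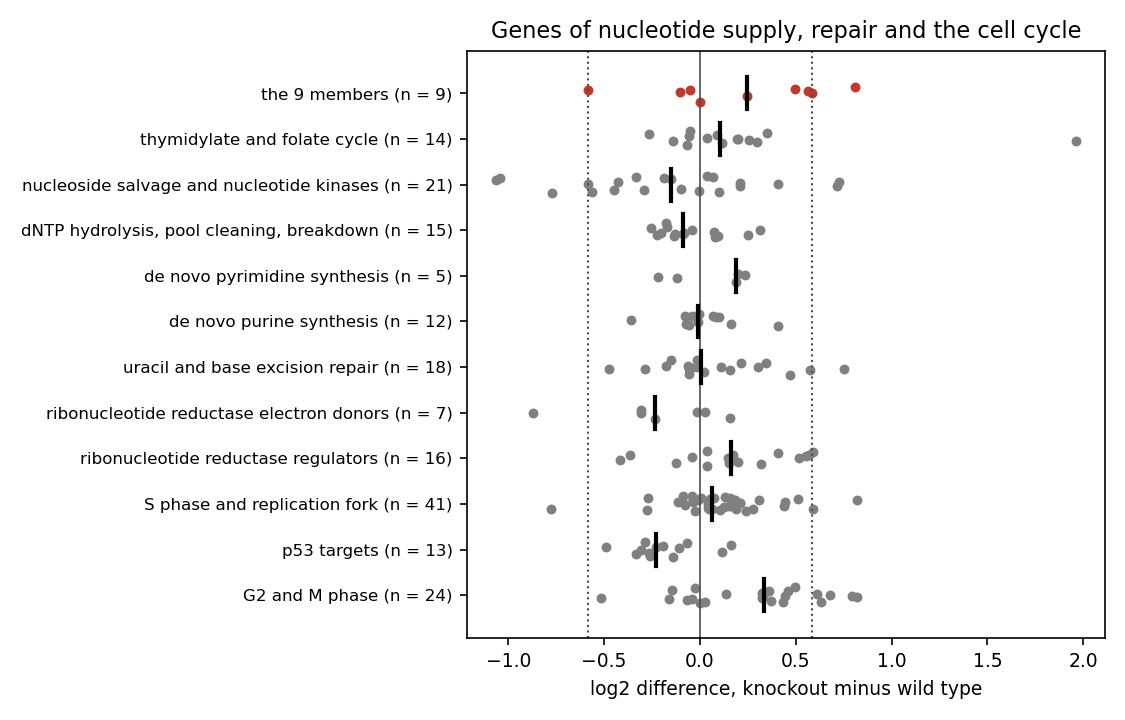
Log2 difference (knockout minus wild type, horizontal axis) of the 9 members and of the genes past the level filter in 11 related lists, with a point per gene, a bar at the median and dotted lines at 1.5-fold. The members spread on both sides of 0 around a median of 0.25, G2 and M phase genes lie mostly above 0 and p53 targets mostly below it.

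The 2 arrays had the same median of 6.41, and the levels of genes past the filter gave r = 0.964 across genes, which are not replicates. Nfe2l2, the targeted gene, stood at 9.07 on the knockout and 9.16 on the wild-type array, so its signal did not separate the genotypes. Where its probes lie relative to the deleted part was not tested. Of the KSL markers listed, 8 of 11 passed the filter with differences between −0.45 and 0.35, and Kit, a gate marker, was high on both arrays at 11.21 and 10.93; Ly6a, which encodes Sca-1, was not analysed here. Of 12 neutrophil markers 11 passed the filter and 10 of these were at least 1.5-fold lower in the knockout, against 4.3% of all genes past the filter. Some of them lay below the filter level on the knockout array and passed through their wild-type values. Summed linear intensities over all 12 were 7353 in the knockout against 16743 in the wild type. No marker of that list was listed at 0, the lowest log2 value being 5.36. Monocyte markers were lower in 5 of 6, with summed intensities of 1442 against 1696 over the 7 measured. Of the erythroid, B lineage and T and NK markers, 1, 3 and 3 passed the filter, with medians of −0.75, −0.20 and −0.11 and with 1, 2 and 2 of them lower. The part of these other cell types in the member differences was not tested.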

How the data were processed

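Total RNA of 2 pools of sorted KSL cells was amplified with NuGEN Ovation kits, labelled, and read on Affymetrix Mouse Gene ST 1.0 arrays, per the labels' protocols. Each deposited value is the log2 intensity of a probe set on an array; the base was taken from their range, up to 13.8. The submitters' processing notes name Partek, and for background correction and normalization no method is given in the sources used here. Once sorted, the values of both arrays matched to within 0.0866, so a shift common to every gene would be invisible. Of 28853 probe sets, 21789 had 1 gene symbol, 1621 several and 5443 none. Probe sets of a gene were averaged, with no further normalization, and genes with a mean at or above the median were kept. With 1 array per genotype no test was run, and the number of arrays limits the precision. Genes named were the members, the up to 4 passing genes per list that differed most in either direction, and passing genes at least 1.5-fold different; for marker lists only counts and sums are given beyond Kit. Members and lists were chosen with earlier results of these data known. The alternatives were 3 scalings, other level filters, fold sizes, probe set rules and list summaries. The fold counts were checked on simulated data with planted folds. Python 3.11.15, numpy 2.4.6, pandas 2.3.3 and statsmodels 0.14.6 were used.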

Additional observations from a re-analysis of the deposited data

How the results depend on the processing

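Of 145 values recomputed under alternatives, 131 stayed within and 14 went beyond a set limit: the probe-set SD of 0.31 for a member, that SD scaled down to the median of as many genes for a list, and 1.5 times for a count. Tk1 differed by 0.92 with the probe set of highest mean and by 0.21 with its first probe set alone, an alternative chosen after seeing the data. The other 8 members had 1 probe set each, so no probe set rule could move their differences. The count of members at least 1.5-fold higher was 1 as reported, against 2.34% of all genes past the filter. It was 2 with median centring (Dck and Ung), against 2.57%. With quantile normalization and with the probe set of highest mean it was 2 (Dck and Tk1 in both), against 2.65% and 2.5%. Loess gave 3, against 2.63%. At a log2 difference of 0.32 it was 4, against 9.27%, and at 2-fold 0, against 0.411%. The count lower, 0 as reported against 4.3%, was 1 at a log2 difference of 0.32, against 14.5%. At that size and with the first probe set of Tk1 alone, 3 members were higher and 1 lower, against 9.26% and 14.5%. The 3 scalings moved the median of all genes by at most 0.024, little beside the limit of 0.31 for a member. The median of the salvage and nucleotide kinase list was −0.01 with the probe set of highest mean, that of base excision repair 0.12 with no level filter, and that of the S phase list 0.12 at the 75th percentile filter. No paired analysis was possible because each genotype had 1 array. Leaving out a replicate was not possible for the same reason.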

Other observations

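Further genes of the same pathways were chosen for their role, outside the naming rule and with their values known. The dNTP hydrolase Samhd1, which lowers the deoxynucleotide pool, read 10.59 in the knockout pool against 10.76 in the wild type, a difference of −0.17. The mitochondrial salvage kinases, which serve mitochondrial DNA, did not follow Dck. Tk2 stood at 6.51 against 6.85, a difference of −0.33, and Dguok at 8.12 against 8.13, a difference of −0.01. The deaminase Dctd, another source of dUMP, was higher by 0.03, and thymidylate kinase Dtymk, which acts on the product of both TYMS and TK1, differed by −0.05. Shmt1, the cytosolic folate enzyme that works beside TYMS, differed by −0.14. The UMP-CMP kinase Cmpk1, which phosphorylates the product of DCK, stood at 9.49 against 9.94, a difference of −0.45. Among other enzymes that start the repair of uracil or its mispairs, Mbd4 was higher by 0.11, and Smug1, at 6.07 against 5.94, lay below the level filter of 6.57.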
